A study of Mus musculus with 45 samples.

Results

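The 4 genes of the Egr family of zinc-finger transcription factors, Egr1, Egr2, Egr3 and Egr4, were followed in the ventral striatum, at the nucleus accumbens (NAC). The animals were C57BL/6J mice, male and adult, that had gone through chronic intermittent ethanol (CIE) or served as controls (Ctrl). The members were all probesets of the array whose platform annotation gave 1 of these 4 symbols alone. This held for 6 of 45037 probesets and for 4 of the 18193 genes with a symbol of their own. Egr1 and Egr4 had 1 probeset each, and Egr2 and Egr3 had 2 each. No probeset carried an Egr symbol together with another one. Each array held RNA from 1 mouse, and the 45 arrays fell into 8 groups by treatment and by the time between the last chamber session and death. There were 6 CIE and 6 Ctrl mice killed at 0 h, and 5 of either treatment at 8 h. The 72 h groups held 5 CIE and 6 Ctrl mice, and the 7 d groups 6 of either. Every mouse went through 4 cycles of 4 days in a chamber (16 h on each day), with 7 days of rest between cycles. After the last session the mice were kept for the time of their group. The chambers of CIE mice carried ethanol vapor (10 to 13 mg/l air), and each cycle began with injections of ethanol (1.6 g/kg) and of pyrazole (1 mmol/kg), which blocks alcohol dehydrogenase. The chambers of Ctrl mice carried air and their injections were saline and pyrazole, so that pyrazole, chamber and handling were common to all 8 groups. The labels do not give the hour of death. By the stated times, 0 h, 72 h and 7 d lie whole days apart, so that only 8 h would fall at another hour of the day. At 8 h, the hour of the day and the time since leaving the chamber cannot be told apart.

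Egr genes are immediate early genes: their transcription starts within minutes of a stimulus without the need for new protein. In neurons, synaptic activity reaches them through calcium, cAMP and MAP kinase signals that act on serum response elements and cAMP response elements of their promoters. The proteins bind a GC-rich DNA element through zinc fingers and switch on or off a later wave of genes, and the corepressors Nab1 and Nab2 hold the activity of Egr1, Egr2 and Egr3 in check. Egr1, also called Zif268, is widely used as a marker of recent neuronal activity. Egr2, also called Krox20, is best known for its part in hindbrain patterning and in the myelination of peripheral nerves. Egr3 is known for its role in muscle spindles and in synaptic plasticity, and Egr4 is the member without a Nab interaction domain.

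Promoter sequences are shown for Egr2 and Egr4, the members whose windows in the RefSeq set of GRCm38.p6 could be printed. Each window holds 250 bases before and 50 after an annotated start. Capitals mark CGTCA, one arm of the cAMP response element, and the CArG box, the core of the serum response element. Both strands were searched, and TGACGTCA (the whole cAMP response element) and GCGNGGGCG (the Egr binding element) were searched as well. The whole element contains CGTCA on both strands, and TGACG in capitals is CGTCA read on the other strand.
Egr2 window at chr10:67537680-67537979 (plus strand): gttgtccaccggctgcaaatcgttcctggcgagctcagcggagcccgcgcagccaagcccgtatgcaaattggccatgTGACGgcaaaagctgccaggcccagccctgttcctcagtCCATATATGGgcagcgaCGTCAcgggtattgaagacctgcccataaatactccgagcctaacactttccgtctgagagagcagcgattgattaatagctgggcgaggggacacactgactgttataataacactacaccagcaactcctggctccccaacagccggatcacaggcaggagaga
Egr2 window at chr10:67537316-67537615 (plus strand): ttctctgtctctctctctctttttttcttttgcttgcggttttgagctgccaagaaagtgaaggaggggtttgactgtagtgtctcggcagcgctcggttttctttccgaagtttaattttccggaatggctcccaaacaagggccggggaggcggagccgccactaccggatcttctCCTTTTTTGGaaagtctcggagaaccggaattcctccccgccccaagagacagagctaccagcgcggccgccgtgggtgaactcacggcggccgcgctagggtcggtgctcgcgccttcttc
Egr4 window at chr6:85513540-85513839 (minus strand): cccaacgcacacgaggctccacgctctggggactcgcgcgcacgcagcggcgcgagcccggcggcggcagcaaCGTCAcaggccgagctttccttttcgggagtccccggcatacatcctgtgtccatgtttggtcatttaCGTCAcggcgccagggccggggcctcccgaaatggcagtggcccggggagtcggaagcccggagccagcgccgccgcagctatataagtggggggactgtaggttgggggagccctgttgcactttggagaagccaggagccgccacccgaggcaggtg
The first Egr2 window held a CArG box that begins 133 bases before the start and CGTCA at 172 and 116 bases before it. The other printed Egr2 window, which belongs to an alternative start, held a CArG box at 72 bases and no CGTCA. The Egr4 window held CGTCA at 177 and 109 bases before the start and no CArG box. None of the 3 printed windows held TGACGTCA or GCGNGGGCG. Egr2 windows that start at 67537619 and 67537620 overlap the first and held the same CArG box and CGTCA matches. A further Egr2 window, at chr10:67535249-67535548, held none of these motifs. Over all 32851 windows in the set, 20.8% held CGTCA, 1.63% a CArG box, 1.79% TGACGTCA and 5.55% GCGNGGGCG. A match describes the letters of the window and is not evidence of a bound site.

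The deposited values are log2 expression values. Below, a change is the difference of 2 group means on that scale with its standard error (SE) from a limma fit over all probesets and arrays, n counts arrays, and a probeset is said to have passed when its p, adjusted over all 45037 probesets by the Benjamini-Hochberg method, was 0.01 or less. The array medians lay between 6.94 and 6.96. The precision is limited by the number of arrays, since arrays carry no counts. Markers of medium spiny neurons, the main neurons of this region, were well expressed: Penk ranged from 13.27 to 13.92, Drd1 from 12.05 to 12.87, Ppp1r1b from 11.46 to 12.59 and Drd2 from 9.41 to 10.6 over the 45 arrays, while Adora2a was not analysed here. The mean of 8 cortical pyramidal markers, set to 0 over all arrays, ran from -1.03 to 1.26 in CIE 0 h and from -1.09 to 0.55 in Ctrl 0 h, and CIE 0 h replicates 72, 5 and 67 had the highest values of these groups (1.26, 1.02 and 0.77). In tissue RNA, fewer cells of a type and less RNA per cell cannot be told apart.

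At 0 h, the end of the last vapor exposure, Egr1 (chromosome 18, 34861207 to 34864956) was lower in CIE than in Ctrl mice. The lowest, median and highest values were 11.93, 12.25 and 12.38 in CIE mice, against 12.65, 12.73 and 12.81 in Ctrl mice. Every CIE mouse lay below every Ctrl mouse, which held for 0.577% of all probesets. The means were 12.21 ± 0.17 in CIE and 12.73 ± 0.05 in Ctrl mice (SD, n = 6 each). Egr1 fell by 0.51 (SE 0.07, adjusted p = 1.13e-05 with limma), with a 95% confidence interval from -0.66 to -0.37, which puts the CIE mean at 0.700 of the Ctrl mean. By p it ranked 27 among all probesets and 18 among those with a negative change. It was the only Egr probeset of 6 that passed at this time, where 1.59% of all probesets passed. In the 5 pairs of CIE and Ctrl arrays that shared an inferred hybridization set, the differences lay between -0.76 and -0.34. Their common sign follows from the lack of overlap between the groups and adds no separate support. Without CIE 0 h replicates 5, 67 and 72, Egr1 fell by 0.42 (adjusted p = 0.00235 with limma). These 3 mice were chosen after the data were seen, and replicates 5 and 67 had the lowest Egr1 of the group (11.93 and 12.12), so this value is a description. In CIE 0 h, Egr1 deviations had a Pearson r of 0.93 with the microglia marker mean and of 0.86 with the endothelial and pericyte marker mean (n = 6, a description), and 0.58 with that of medium spiny neurons; over the other 39 arrays these were -0.22, -0.02 and 0.21. The microglia marker mean ran from -0.37 to 0.03 in CIE 0 h and from -0.22 to 0.46 in Ctrl 0 h, and 8 of its 9 markers had negative changes (median -0.17), of which 3 had an unadjusted p under 0.05 and 1 passed (P2ry12, which fell by 0.48). An unadjusted p under 0.05 was found for 3353 of all 18193 genes. At 0 h 0.654% of all genes fell and 1.28% rose. Of 7 endothelial and pericyte markers 6 had negative changes (median -0.11) and 4 had an unadjusted p under 0.05. Among them Vtn fell by 0.46 (adjusted p = 0.00011) and Slc2a1 rose by 0.33 (adjusted p = 0.00345). The part of these cells in the Egr1 result was not tested. The call was lost when only the 12 arrays of 0 h entered the fit, with the same change and an adjusted p of 0.0127.

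**Figure D1:**
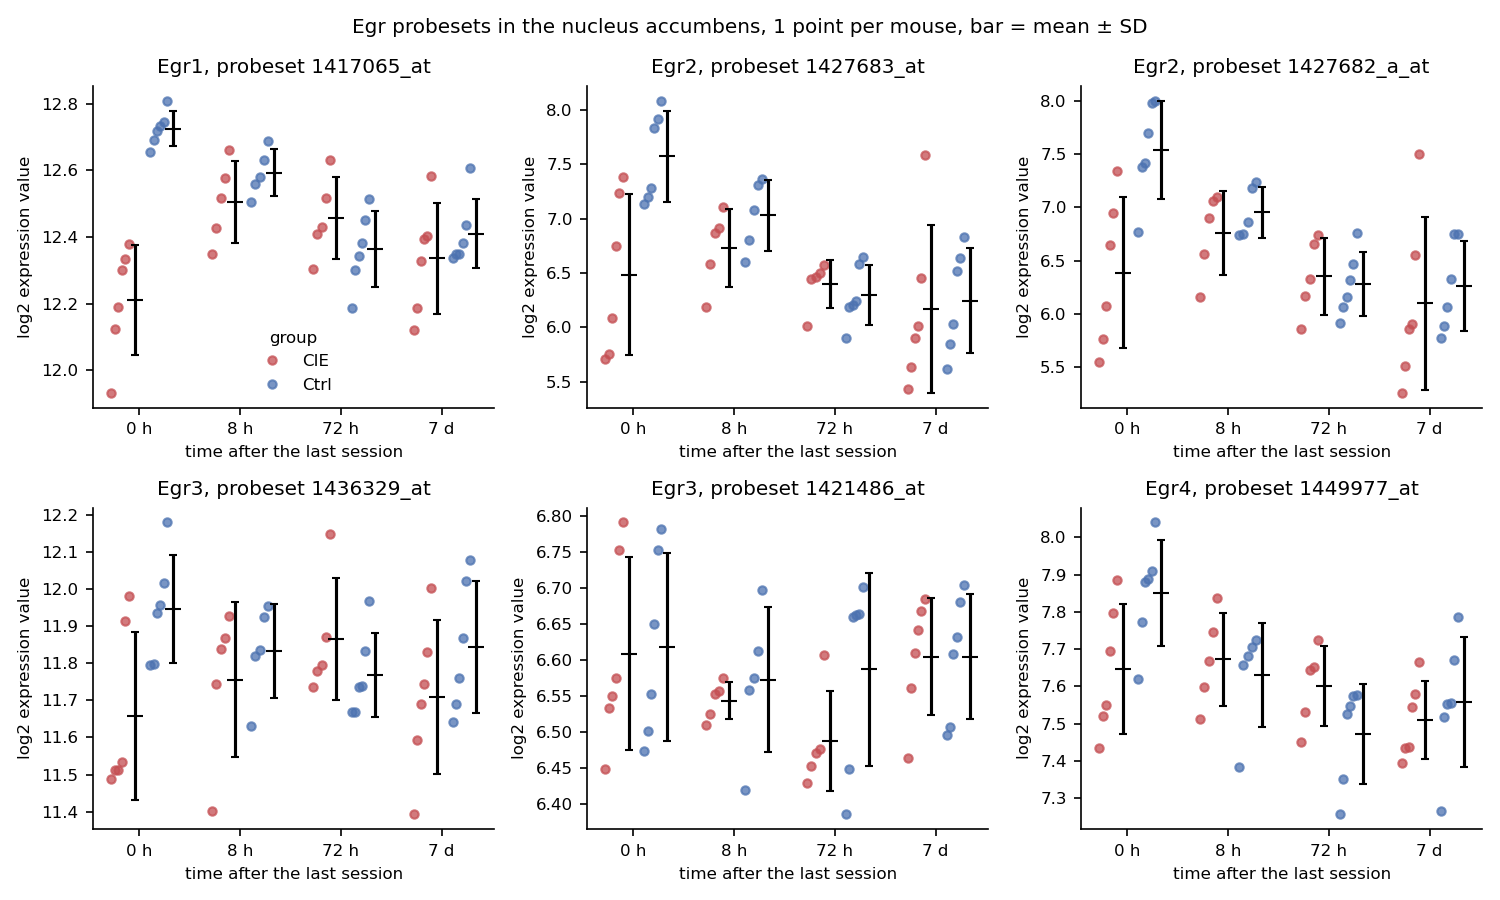
Log2 expression values of the 6 Egr probesets (y axis) by time after the last session (x axis), CIE in red left of Ctrl in blue, 1 point per mouse with the group mean ± SD in black. The 6 Ctrl 0 h points of Egr1 lie between 12.65 and 12.81, above all 6 CIE 0 h points, and the CIE 0 h points of Egr2 at 1427683_at spread from 5.71 to 7.38.

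Egr2 (chromosome 10, 67534469 to 67542188) had the widest spread at 0 h. At its probeset 1427683_at, the lowest, median and highest values were 5.71, 6.42 and 7.38 in CIE mice, against 7.13, 7.56 and 8.08 in Ctrl mice. The CIE mice divided: replicates 5, 72 and 67 lay at 5.71, 5.76 and 6.09, replicate 26 at 6.74, and replicates 43 and 17 at 7.23 and 7.38, inside the Ctrl range. The change was -1.09 (SE 0.28, adjusted p = 0.0164 with limma), and its 95% confidence interval ran from -1.65 to -0.53. At the second probeset, 1427682_a_at, it was -1.15 (SE 0.28, adjusted p = 0.0121). Neither probeset passed at 0.01, and both would at 0.05, as would 1772 of all 45037 probesets. The 2 probesets read the same gene and are not separate results. The adjusted p of 1427683_at was 0.0353 with the inferred sets as a block, 0.0902 with array weights and 0.134 with only the arrays of 0 h, so that the looser threshold was met in the first of these alone. Their values followed each other over the 45 arrays (Pearson r = 0.97). The mean of each lay below 6.96, the median over all probesets.

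The 3 CIE mice with the lowest Egr2 were those with the highest cortical marker means. Within CIE 0 h the deviations of Egr2 had a Pearson r of -0.90 with the cortical pyramidal marker mean and of 0.97 with the medium spiny neuron marker mean (n = 6 mice from 1 group, a description). Without these 3 mice the change was -0.45 (SE 0.30), a smaller value that follows from leaving out the lowest Egr2 values and tests nothing. With the cortical marker mean as a covariate it was -0.89 (adjusted p = 0.0117), and 1427682_a_at passed (adjusted p = 0.00808), as did 735 of all 45037 probesets. None of the 14 measured medium spiny neuron markers and none of the 8 cortical markers passed between CIE and Ctrl at 0 h, where their median changes were -0.23 and 0.49 and 8 and 1 of them had an unadjusted p under 0.05. Of all 18193 genes, 3353 had an unadjusted p under 0.05 at 0 h. The medium spiny neuron marker mean ran from -0.47 to 0.23 in CIE 0 h and from -0.08 to 0.19 in Ctrl 0 h. Leaving out CIE 0 h replicate 17 or 43, the highest Egr2 values of the group, brought the adjusted p of 1427683_at to 0.00449 and 0.00597, and over all 12 fits that left out 1 mouse it reached 0.0694. The part of tissue composition in the Egr2 values was not tested.

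Egr3 (chromosome 14, 70077317 to 70082613) and Egr4 (chromosome 6, 85511121 to 85513589) were also lower in the CIE mean at 0 h, and neither passed. At 1436329_at, the brighter Egr3 probeset, the lowest, median and highest values were 11.49, 11.52 and 11.98 in CIE mice, against 11.80, 11.95 and 12.18 in Ctrl mice. Replicates 17 and 43, which had the highest Egr2 of the CIE mice, were also its highest for Egr3, at 11.98 and 11.91, and the other 4 lay between 11.49 and 11.53. The change was -0.29 (SE 0.10, adjusted p = 0.0955). The other Egr3 probeset, 1421486_at, stayed between 6.39 and 6.79 on all 45 arrays, followed the first only weakly (r = 0.19) and had a change of -0.01 (SE 0.06). For Egr4 the lowest, median and highest values were 7.43, 7.62 and 7.88 in CIE mice, against 7.62, 7.88 and 8.04 in Ctrl mice. The CIE and Ctrl mice overlapped for both genes. The Egr4 change was -0.20 (SE 0.08, adjusted p = 0.163). All 6 Egr probesets thus had negative changes, with a median of -0.40. Of all 18193 genes, each at its brightest probeset, 7841 had negative changes and the median was 0.02. The 6 probesets are not 6 separate results, since 2 of them read Egr2. The sign at 1421486_at turned with array weights and with the cortical marker mean as a covariate.

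**Figure D2:**
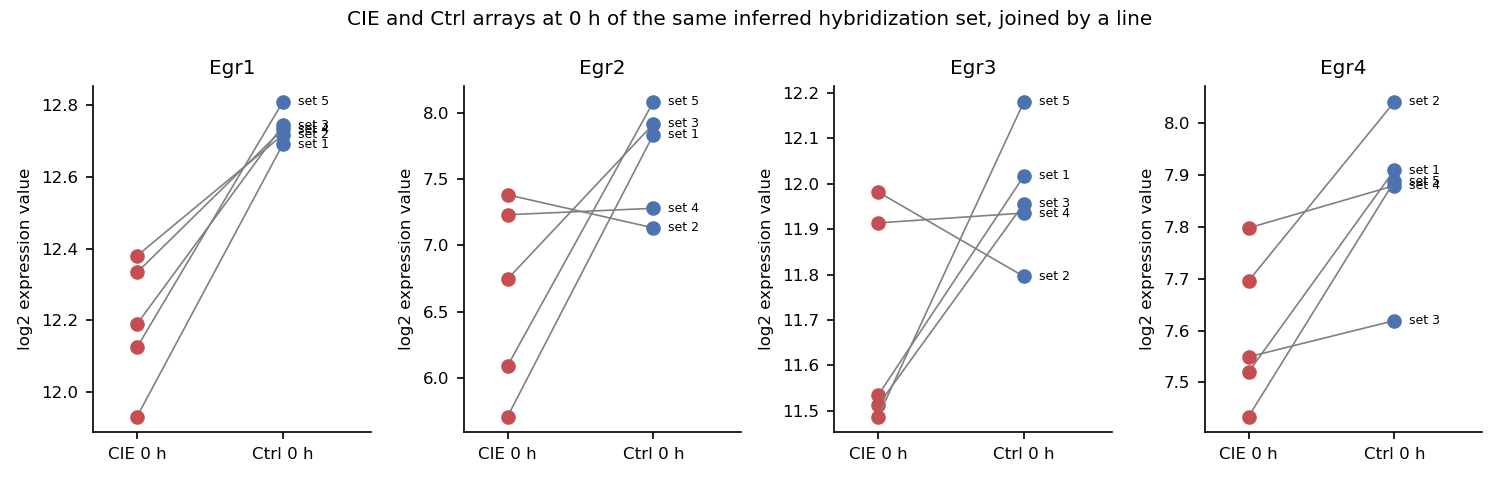
Log2 expression values (y axis) of Egr1, Egr2, Egr3 and Egr4 at the brighter probeset of each, for the 5 pairs of CIE (left, red) and Ctrl (right, blue) arrays at 0 h that share an inferred hybridization set, joined by a line. All 5 Egr1 lines slope the same way, with CIE lower by 0.34 to 0.76, as any pairing of groups that do not overlap must give. The Egr2 and Egr3 lines of set 2 slope the other way.

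Within the shared sets, the 0 h differences of Egr2 at 1427683_at were -2.13, -1.99 and -1.17 in sets 1, 5 and 3, against -0.05 in set 4 and 0.25 in set 2. The pairs of sets 2 and 4 hold CIE replicates 17 and 43. Egr3 showed the same division, from -0.69 to -0.44 in sets 1, 3 and 5, with -0.02 in set 4 and 0.19 in set 2. Egr4 was lower in the CIE array of all 5 pairs, by differences from -0.45 to -0.07.

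At the later times none of the 6 Egr probesets passed between CIE and Ctrl, and none had an unadjusted p under 0.05. The adjusted p ranged from 0.911 to 0.982 at 8 h, from 0.754 to 0.968 at 72 h, and was 1.00 at 7 d. Of all probesets, 0.0622% passed at 8 h and 0% at 72 h and at 7 d, where 3242 and 1056 had an unadjusted p under 0.05. For Egr1 the values ran from 12.35 to 12.66 in CIE and from 12.51 to 12.69 in Ctrl mice at 8 h, from 12.30 to 12.63 in CIE and from 12.19 to 12.51 in Ctrl mice at 72 h, and from 12.12 to 12.58 in CIE and from 12.34 to 12.61 in Ctrl mice at 7 d. The groups overlapped at each of these times. The Egr1 changes were -0.09 (95% confidence interval from -0.24 to 0.07) at 8 h, 0.09 (from -0.05 to 0.24) at 72 h and -0.07 (from -0.22 to 0.07) at 7 d. The intervals of Egr2 were wider, from -0.91 to 0.31 at 8 h, from -0.48 to 0.69 at 72 h and from -0.64 to 0.49 at 7 d. CIE 7 d replicate 13 stood high for Egr2 (7.58 and 7.50 at the 2 probesets), where the other 5 mice of the group lay between 5.44 and 6.45 at 1427683_at.

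Whether the difference between CIE and Ctrl changed with time was tested directly. For Egr1 it was 0.61 higher at 72 h than at 0 h (SE 0.10, adjusted p = 0.00192 with limma), and this was the only Egr probeset of 6 that passed, where 0.0755% of all probesets did. Without CIE 0 h replicates 5, 67 and 72, chosen after the data were seen, this value was 0.52 with an adjusted p of 0.0126. The same step was 0.43 at 8 h (SE 0.10, adjusted p = 0.165) and 0.44 at 7 d (SE 0.10, adjusted p = 0.0200). No Egr probeset passed in these comparisons, where 0% (2482 at an unadjusted p under 0.05) and 0.2% (4453 at an unadjusted p under 0.05) of all probesets passed, and 3 of 6 had an unadjusted p under 0.05 in each. For Egr2 the 72 h step was 1.19 (SE 0.40, adjusted p = 0.301). All of these contrasts share the 0 h arrays.

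**Figure D3:**
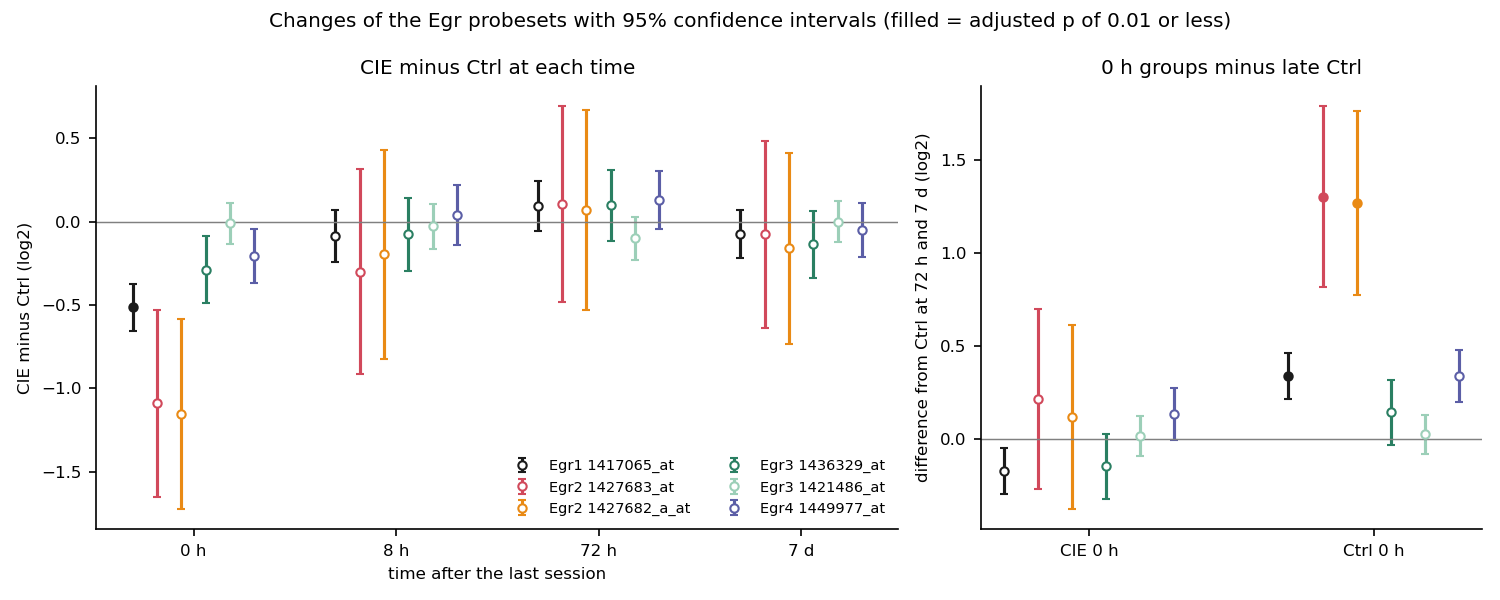
Left, CIE minus Ctrl (log2, y axis) of the 6 Egr probesets by time. Right, CIE 0 h and Ctrl 0 h, each minus the mean of Ctrl at 72 h and 7 d. Bars are 95% confidence intervals and filled points have an adjusted p of 0.01 or less, which on the left is Egr1 at 0 h alone (-0.51) and on the right Egr1 (0.34) and both Egr2 probesets (1.30 and 1.27) in Ctrl 0 h.

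The level of the Ctrl mice themselves differed between times. Over 0 h, 8 h, 72 h and 7 d the Egr1 mean of Ctrl mice was 12.73 ± 0.05, 12.59 ± 0.07, 12.36 ± 0.12 and 12.41 ± 0.10 (SD, n = 6, 5, 6 and 6). Egr2 at 1427683_at had 7.57 ± 0.42, 7.03 ± 0.33, 6.30 ± 0.28 and 6.25 ± 0.49 at the same times, and Egr4 had 7.85 ± 0.14, 7.63 ± 0.14, 7.47 ± 0.14 and 7.56 ± 0.17. The brighter Egr3 probeset had 11.95 ± 0.15, 11.83 ± 0.13, 11.77 ± 0.11 and 11.84 ± 0.18. The 6 Ctrl 0 h mice lay above all Ctrl 72 h mice for Egr1, for both Egr2 probesets and for Egr4, where 0.189% of all probesets did. They lay above all Ctrl 7 d mice for Egr1 and both Egr2 probesets, where 0.226% did. Set against Ctrl 0 h, the Egr1 change was -0.36 at 72 h (SE 0.07, adjusted p = 0.0136) and -0.31 at 7 d (SE 0.07, adjusted p = 0.0478), and that of Egr2 at 1427683_at was -1.28 at 72 h (SE 0.28, adjusted p = 0.0482) and -1.33 at 7 d (SE 0.28, adjusted p = 0.0242). No Egr probeset passed at 0.01 in Ctrl at 8 h, 72 h or 7 d against 0 h, where 0% (2264 at an unadjusted p under 0.05), 0.0488% and 0.0799% of all probesets passed, and 1, 4 and 4 of the 6 had an unadjusted p under 0.05. At 72 h and 7 d, 2493 and 2663 of all probesets had an unadjusted p under 0.05. With the cortical marker mean as a covariate, Egr1 (adjusted p = 0.00483) and both Egr2 probesets (0.000225 and 0.000417) passed at 72 h and both Egr2 probesets (0.00146 and 0.00389) at 7 d. Egr1 at 72 h also passed with trend and robust settings (adjusted p = 0.00862) and among probesets above the median level (0.00725). How many of all probesets passed under these alternatives in the Ctrl comparisons was not counted. Whether the added calls are particular to the Egr probesets thus cannot be told.

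Against the 12 Ctrl mice of 72 h and 7 d together, Ctrl 0 h mice had higher Egr1 and Egr2. The Egr1 difference was 0.34 (SE 0.06, adjusted p = 0.00294 with limma), and Egr2 was 1.30 higher at 1427683_at (SE 0.24, adjusted p = 0.00409) and 1.27 higher at 1427682_a_at (SE 0.24, adjusted p = 0.00722), a 2.47-fold and a 2.41-fold difference. These 3 of 6 Egr probesets passed, where 0.109% of all probesets did. The Ctrl 0 h arrays are also those of the 0 h comparison with CIE, where they enter with the opposite sign. Egr4 was 0.34 higher (SE 0.07, adjusted p = 0.0154) and Egr3 0.14 higher (SE 0.09, adjusted p = 0.985), and neither passed. With the inferred hybridization sets as a block, the 3 calls were lost, with adjusted p of 0.0172 for Egr1, 0.0172 for Egr2 at 1427683_at and 0.0109 at 1427682_a_at and differences of 0.36, 1.39 and 1.44. They were also lost without 1 of several Ctrl 0 h mice: Egr1 without replicate 48, 74 or 78 (adjusted p up to 0.0199) and Egr2 at 1427683_at without replicate 30, 48 or 78 (up to 0.0283).

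CIE 0 h mice, set against the same 12 Ctrl mice, showed no Egr probeset that passed, where 3.69% of all probesets did. The Egr1 difference was -0.18 (SE 0.06, 95% confidence interval from -0.30 to -0.05, adjusted p = 0.0657), the only 1 of 6 with an unadjusted p under 0.05. That level was reached by 9280 of all 45037 probesets. The differences were 0.21 (from -0.27 to 0.70) for Egr2 at 1427683_at, -0.15 (from -0.32 to 0.03) for Egr3 at 1436329_at and 0.13 (from -0.01 to 0.27) for Egr4. The Egr2 value depended on single mice, from 0.03 to 0.37 with 1 left out, and was 0.37 with array weights, 0.48 with the cortical covariate and 0.85 without replicates 5, 67 and 72, its lowest mice. This comparison and that of Ctrl 0 h share the late Ctrl arrays. Among CIE mice, no Egr probeset passed at 8 h, 72 h or 7 d against 0 h, where 0.633%, 1.62% and 1.5% of all probesets did, and 1, 1 and 0 of the 6 had an unadjusted p under 0.05. In these comparisons 5707, 7090 and 6573 of all 45037 probesets had an unadjusted p under 0.05. Egr1 in CIE mice had means of 12.21 ± 0.17, 12.51 ± 0.12, 12.46 ± 0.12 and 12.34 ± 0.17 at 0 h, 8 h, 72 h and 7 d (SD, n = 6, 5, 5 and 6), and its change at 8 h against 0 h was 0.30 (SE 0.07, adjusted p = 0.0244).

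In the order of the 8 group means, CIE 0 h was lowest for Egr1 and Egr3, at place 4 from the top for Egr2 and place 3 for Egr4, and Ctrl 0 h was highest for all 4 genes. Neighbours in these orders overlapped in every case. The gap from Ctrl 0 h to the next group was 0.13 for Egr1 (Ctrl 8 h), 0.54 for Egr2 (Ctrl 8 h), 0.08 for Egr3 (CIE 72 h) and 0.18 for Egr4 (CIE 8 h).

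Across mice, Egr1, Egr2 and Egr3 deviated together from their group means, and the values were lower for the pairs with Egr4. Over the 45 mice and the 6 pairs of genes, with group means removed, Egr1 and Egr2 had a Pearson r of 0.72 and a Spearman rho of 0.68, and Egr2 and Egr3 an r of 0.63 and a rho of 0.63 (two-sided permutation test, p = 1e-05 for each r and rho, the smallest that 100000 resamples can give, and 3e-05 adjusted over the 6 pairs). Egr1 and Egr3 had an r of 0.48 (adjusted permutation p = 0.00224) and a rho of 0.45 (0.00416). For Egr1 and Egr4 r was 0.37 (adjusted permutation p = 0.0189) and rho 0.43 (0.00507), and for Egr3 and Egr4 r was 0.30 (adjusted permutation p = 0.0524) and rho 0.36 (0.0194). For Egr2 and Egr4 r was 0.05 (permutation p = 0.761) and rho 0.11 (0.467). The permutation test shuffled deviations over all 45 mice and not within groups, although their spread differed between groups. For Egr2 the SD was 0.22 in CIE 72 h and 0.77 in CIE 7 d. The permutation p are therefore approximate and may be too small. Without the 2 mice farthest from the median of the gene named first, r was 0.64 for Egr1 with Egr2, 0.46 for Egr1 with Egr3, 0.42 for Egr1 with Egr4, 0.62 for Egr2 with Egr3, 0.11 for Egr2 with Egr4 and 0.29 for Egr3 with Egr4. With the inferred sets removed as well, these values were 0.71, 0.46, 0.38, 0.62, 0.03 and 0.29. The same 45 mice also differed in tissue markers: with group means removed, the medium spiny neuron marker mean had an r of 0.77 with Egr3, 0.51 with Egr2, 0.32 with Egr1 and 0.28 with Egr4, and the cortical marker mean -0.56, -0.65, -0.28 and -0.13. Egr3 also had an r of 0.69 with the mean of the circadian clock genes, -0.63 with that of astrocyte markers and -0.58 with that of interneuron markers, and Egr4 of -0.41 with the astrocyte markers. These share arrays and are given as a description.

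**Figure D4:**
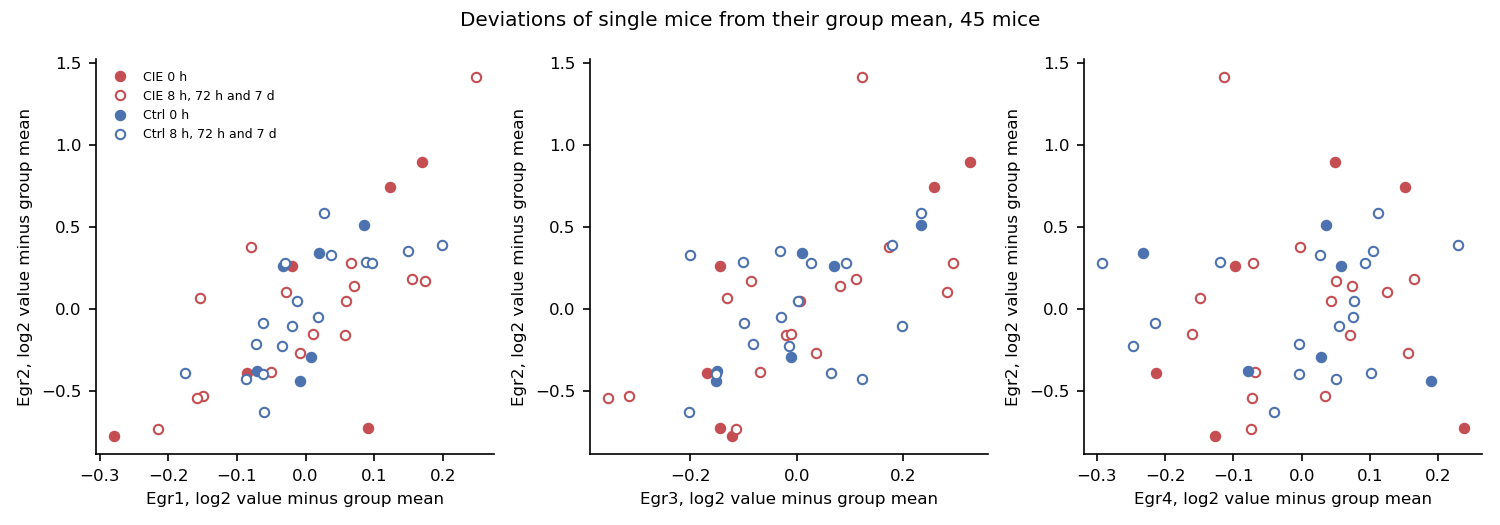
Deviation of Egr2 from its group mean (y axis, log2) against that of Egr1, Egr3 and Egr4 (x axes, log2), 1 point per mouse, CIE in red and Ctrl in blue, filled at 0 h and open at the later times. The 45 points rise together for Egr1 (r = 0.72) and Egr3 (r = 0.63) and scatter for Egr4 (r = 0.05).

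The genes whose values over the 45 arrays were most like those of a member were chosen by Pearson r, among 11193 genes with a level above the median (11194 for Egr2). For Egr1 they were Nr4a1 (0.87), Arc (0.85), P4ha1 (0.79), Btaf1 (0.76) and Kif1b (0.76), of which Nr4a1, an orphan nuclear receptor, and Arc, a postsynaptic protein, are themselves immediate early genes. For Egr2 they were Nr4a1 (0.82), Tiparp (0.81), Egr1 (0.78), Dusp1 (0.77), a MAP kinase phosphatase, and Baz1a (0.76). Egr3 at its brighter probeset was most like Akap5 (0.89), an anchoring protein of the postsynaptic density, Arpp19 (0.88), Rem2 (0.88), Tomm70a (0.86) and Cdc42ep3 (0.85), and none of these belonged to the immediate early genes listed here. Egr4 was most like Dusp14 (0.68), Kcnh3 (0.68), Synpo (0.67), Junb (0.67), an AP-1 component, and Lmtk2 (0.64). The 45 values include the group differences. With group means removed the r of Nr4a1 with Egr1 was 0.73 and that of Akap5 with Egr3 was 0.90.

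Of the Egr corepressors, Nab1 and Nab2, neither passed between CIE and Ctrl at any of the 4 times or in the 0 h groups against late Ctrl. Nab2, which Egr factors induce, had a change of -0.27 at 0 h (SE 0.09, adjusted p = 0.0872) and Nab1 of 0.16 (SE 0.12, adjusted p = 0.537). At 8 h, 72 h and 7 d the Nab2 changes lay between -0.05 and 0.01. Of 18 measured genes reported as Egr targets, 1 fell at 0 h, against 0.654% of all genes at their brightest probeset. This was Arc, which is also an immediate early gene, with a change of -1.16 (SE 0.18, adjusted p = 6.22e-05 with limma). The median change of the 18 was -0.04. Of 4 measured peripheral myelin genes reported as Egr2 targets, none passed between CIE and Ctrl at any time. At 0 h 1 of them had an unadjusted p under 0.05, as had 3353 of all 18193 genes, and their median change was -0.25. Against late Ctrl, Pmp22 fell in CIE 0 h by 0.72 (SE 0.16, adjusted p = 0.00194) and Ngfr, a neurotrophin receptor on the target list, fell by 0.38 (SE 0.09, adjusted p = 0.00643), where 1.99% of all genes fell. All 5 measured oligodendrocyte markers had negative differences in CIE 0 h against late Ctrl (median -0.30), and none passed. Mbp and Mag are on this list and also among the 4 myelin genes, so the lists are not independent. An unadjusted p under 0.05 was found for 4 of the 5 markers and for 4542 of all 18193 genes. The 4 myelin genes were also negative in Ctrl 0 h against late Ctrl (median -0.35). None of them passed there, and 1 had an unadjusted p under 0.05, as had 1173 of all 18193 genes. The part of these cells was not tested.

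Upstream of the Egr genes, 1 of 13 measured regulators of serum response and cAMP response elements passed at 0 h. Elk1, which with the serum response factor binds serum response elements, rose by 0.64 (SE 0.12, adjusted p = 0.000975), where 1.28% of all genes rose. Srf, the serum response factor itself, had a change of -0.25 (SE 0.08, adjusted p = 0.0555), and Creb1 of -0.11 (SE 0.08, adjusted p = 0.530). None of 12 measured members of the Ras, MAP kinase and calcium kinase cascade passed at any of the 4 times, with a median change of -0.02 at 0 h and 3, 1, 1 and 0 of them at an unadjusted p under 0.05. At the same times 3353, 1462, 830 and 359 of all 18193 genes had an unadjusted p under 0.05. Another 8 genes of the cascade list were not analysed here.

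Of 27 other immediate early genes, all measured, 5 fell at 0 h, 2 rose and 20 did not pass, 21 had negative changes, and the median was -0.15. Of all 18193 genes, 0.654% fell, 1.28% rose and 7841 had negative changes. Arc fell by 1.16, Fos, the AP-1 component most used as an activity marker, fell by 1.06 (SE 0.21, adjusted p = 0.00164), Npas4, an activity-dependent factor of neurons, fell by 1.03 (SE 0.22, adjusted p = 0.00276), and Nr4a1 fell by 0.95 (SE 0.14, adjusted p = 3.87e-05). Nr4a3 fell by 0.55 (SE 0.12, adjusted p = 0.00502). Jun, another AP-1 component, rose by 0.65 (SE 0.13, adjusted p = 0.00145) and Maff, a small Maf factor, rose by 0.56 (SE 0.13, adjusted p = 0.00563). Against late Ctrl, 6 of the 27 were higher in Ctrl 0 h, among them Fos by 1.16, Nr4a1 by 0.83 and Arc by 0.81, where 0.11% of all genes were. This comparison and that of CIE with Ctrl at 0 h share the Ctrl 0 h arrays, which enter them with opposite signs. In CIE 0 h against late Ctrl 2 of 27 rose, Jun by 0.63 and Maff by 0.59, where 3.03% of all genes did. None of the 27 passed between CIE and Ctrl at 8 h, 72 h or 7 d. There 3, 3 and 0 had an unadjusted p under 0.05, as had 1462, 830 and 359 of all 18193 genes.

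**Figure D5:**
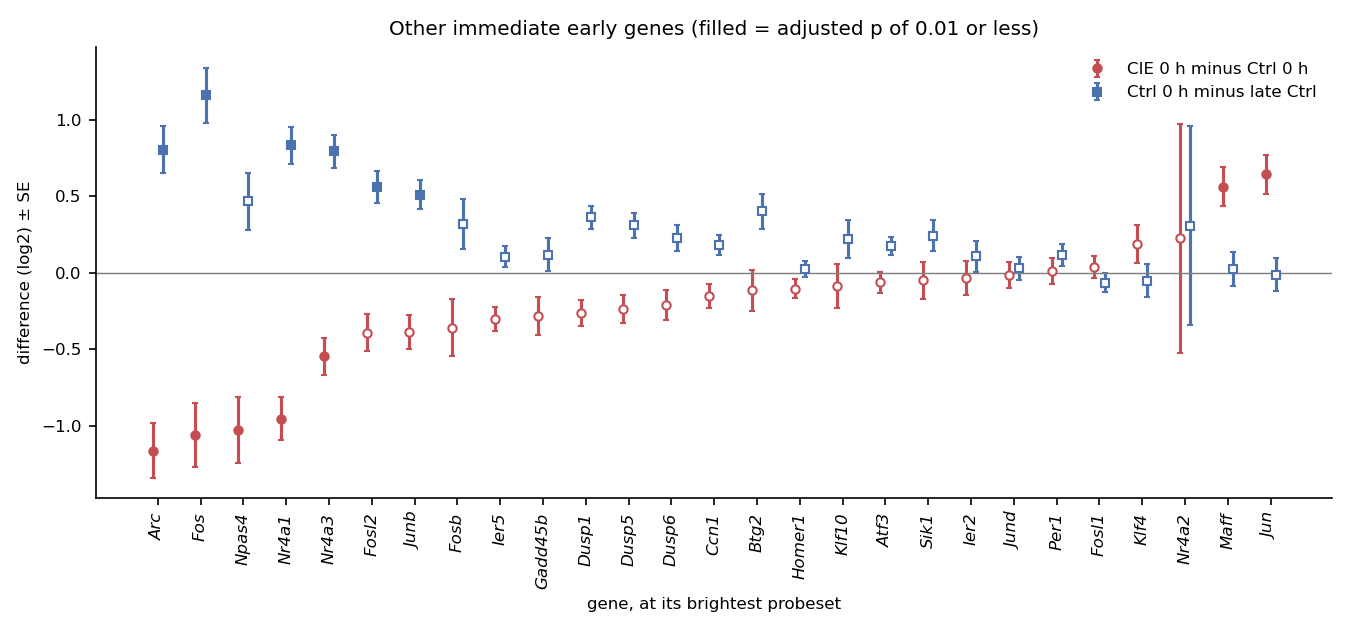
Differences (log2 ± SE, y axis) of 27 other immediate early genes at the brightest probeset of each (x axis), CIE 0 h minus Ctrl 0 h in red and Ctrl 0 h minus late Ctrl in blue, filled where the adjusted p is 0.01 or less. Arc, Fos, Nr4a1 and Nr4a3 have filled points on both sides of 0, and Maff and Jun rose in CIE 0 h with differences of 0.02 and -0.01 in Ctrl 0 h against late Ctrl.

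The motifs of the Egr2 and Egr4 windows were also read in the windows of these genes. Of the 27, 22 had windows, of which 16 held CGTCA, 3 TGACGTCA, 1 a CArG box (Dusp5) and 8 GCGNGGGCG. Of the 5 that fell in CIE 0 h, 4 had windows, and all of these (Fos, Npas4, Nr4a1 and Nr4a3) held CGTCA. By gene, 23% of the 27025 genes in the set held CGTCA. Circadian clock genes were followed as well. Of 16 measured, 1 rose at 0 h between CIE and Ctrl (Ciart by 0.55, adjusted p = 0.00255 with limma), where 1.28% of all genes rose. An unadjusted p under 0.05 was found for 8 of them and for 3353 of all 18193 genes. None passed between CIE and Ctrl at the later times, where 1, 0 and 1 had an unadjusted p under 0.05, as had 1462, 830 and 359 of all genes. CIE and Ctrl mice of 1 group time share that time, so these values do not bear on differences between times. In Ctrl 0 h against late Ctrl none of the 16 passed and the median was -0.04. There 3 of them had an unadjusted p under 0.05, as had 1173 of all genes.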

How the data were processed

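Affymetrix mouse genome arrays had been hybridized with NAC RNA, and 45 of them, each of 1 mouse, were analysed. The deposited values are log2 expression values made by the authors with RMA (version not given in the sources used here), with background correction and quantile normalization within hybridization batches, a joint quantile normalization and a ComBat batch adjustment. They were used as deposited. Groups came from the labels. The 45037 probesets were named by the platform annotation, and 34741 of 34945 with 1 symbol were found in a RefSeq table of GRCm38.p6, which gave positions; 932 had several symbols and 9160 none.

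limma 3.58.1 (R 4.3.3) was fitted to all 45 arrays with 8 group means, default empirical Bayes settings and no covariate, adjusted by Benjamini-Hochberg over all probesets within a contrast, with a threshold of 0.01 (0.05 as a looser one). The fit was tested on simulated data for CIE minus Ctrl at 0 h over 45037 probesets. Late Ctrl is the mean of Ctrl 72 h and Ctrl 7 d.

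Batches are not labelled. Hybridization sets were inferred from arrays with identical values at 5 or more probesets (within 2e-08). This gave 6 sets of 6 to 8 arrays with at most 1 array per group, and Ctrl 0 h replicate 20 in none. The sets are inferred and may differ from the authors' batches.

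A gene with several probesets is represented by its brightest, over all arrays. From each gene list up to 4 passing genes per comparison were named, and both corepressors, the 5 genes most alike to each member, and all Egr probesets. Nr4a3, Jun, Maff, Srf, Creb1, Dusp5, P2ry12, Vtn and Slc2a1 fall outside this rule and were named after their values were seen. The members and lists were chosen with earlier results of these data known. List symbols were updated through RefSeq synonyms for 3 genes. Alternatives were the sets as a block, another quantile normalization, centring on the array median, trend and robust settings, array weights, only the arrays of the groups compared, only probesets above the median level, the cortical marker mean as a covariate, and leaving out each array; leaving out CIE 0 h replicates 5, 67 and 72 together was added after seeing the data.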

Additional observations from a re-analysis of the deposited data

Results flagged for a closer look

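Among 48 sets of values, each 1 Egr probeset in 1 group, 4 held a mouse far from the rest of its group by Dixon's ratio, where chance gives about 1 in 20. Egr1 in Ctrl 7 d replicate 80 was 12.61, above the other 5 mice at 12.34 to 12.44. Egr2 at 1427683_at in CIE 72 h replicate 29 was 6.015, below the other 4 at 6.448 to 6.571. Egr3 at 1421486_at in CIE 72 h replicate 3 was 6.608, above the other 4 at 6.429 to 6.477. Egr4 in Ctrl 8 h replicate 8 was 7.384, below the other 4 at 7.658 to 7.724.

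The difference of Egr1 between CIE and Ctrl was not the same at 72 h as at 0 h: it was 0.6089 higher at 72 h (adjusted p = 0.001923 with limma), with an adjusted p between 0.001155 and 0.008605 when any 1 of the 23 mice was left out.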

How the results depend on the processing

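Over all results and alternatives, 1819 values kept their direction and side of the threshold or moved little, 16 became and 25 ceased to be a call, 34 moved and 28 changed sign; causes were not tested. Egr1 at 0 h passed in 12 of 12 fits that left out 1 mouse (-0.5484 to -0.4588) and did not pass with only the arrays compared (-0.5145, adjusted p = 0.0127). Of all probesets 717 passed at 0 h, against 299 with the inferred sets as a block, 309 with array weights, 19 with only the arrays compared, 234 without CIE 0 h replicates 5, 67 and 72 (chosen after seeing the data) and 366 to 892 with 1 mouse left out. At 8 h 28 passed, against 119 with array weights, 6 with only the arrays compared, 46 with the cortical covariate and 13 to 26 with 1 mouse left out; at 72 h 0 passed, against 20 with weights and 0 to 0 with 1 mouse left out; at 7 d 0 passed, against 1 with weights.

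Egr2 at 0 h ranged from -1.268 to -0.9329 at 1427683_at and from -1.344 to -0.9848 at 1427682_a_at with 1 mouse left out, and 1427682_a_at was at -0.9519 with the cortical covariate. For Ctrl 0 h minus late Ctrl, Egr1 was 0.3559 with the block (adjusted p = 0.01715), 0.3442 with weights (0.0207) and 0.3206 to 0.3579 with 1 mouse left out. Egr2 at 1427683_at was 1.394 with the block and 1.2 to 1.39, and at 1427682_a_at 1.441 with the block, 1.27 with weights and 1.177 to 1.424 (passing in 6 of 18). Egr4 was 0.3368 among probesets above the median level (adjusted p = 0.00918) and 0.2989 to 0.3834, passing without Ctrl 7 d replicate 80. Without CIE 0 h replicates 5, 67 and 72 the 72 h less 0 h value of Egr1 was 0.5179. Egr1 and Egr2 had an r of 0.638 without the 2 farthest mice, and 2 clock genes passed at 0 h when the probeset with the smallest p was taken.

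Signs turned for values near 0. The dim Egr3 probeset 1421486_at was -1.577e-05 at 7 d after median centring and -0.01357 with weights, and at 0 h 0.01116 with weights, 0.008099 with the covariate and 0.07373 without the 3 mice. With 1 mouse left out it ran from -0.04649 to 0.02287 at 0 h, -0.0671 to 0.002343 at 8 h and -0.02176 to 0.02827 at 7 d. Egr3 at 1436329_at ran from -0.1273 to 0.0115 and Egr4 from -0.02015 to 0.08175 at 8 h. Egr2 at 1427682_a_at ran from -0.02722 to 0.193 at 72 h, -0.4414 to 0.006872 at 7 d and -0.07447 to 0.2842 for CIE 0 h minus late Ctrl, and at 1427683_at from -0.3577 to 0.07183 at 7 d. Egr2 and 1421486_at lie below the median level and have no value under that filter. Pairing by replicate number was not possible, since each number is that of a single mouse and occurs in 1 group; arrays were paired only through the inferred sets, as the block above. The means of 1427683_at, 1427682_a_at and the dim Egr3 probeset stood at percentiles 45.5, 44.97 and 45.13 among all probesets. How far these levels lie above background was not measured, which limits what they can show.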
